A study of Homo sapiens with 8 samples.

Results

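GCLM, SLC7A11, TKT, NQO1, PIR and AKR1C1 are targets of the transcription factor NRF2 that act in glutathione supply and redox metabolism, outside heme and iron handling. They were taken by gene symbol from 3 tables of genes called changed by the authors, and each of the 6 stands in at least 1 table, out of 2998 genes listed in any of them. The cells were MDA-MB-231, an established human breast cancer line of the triple-negative type, measured by RNA sequencing. The 8 samples formed 4 groups of 2, namely cells given acetylated brazilin, cells given methylated brazilin, cells given unmodified brazilin, and untreated cells. Treated cells received 20 µM of a compound from seeding on, with a fresh dose each day until harvest at 48 h, and all groups were grown in high-glucose medium with fetal bovine serum. Brazilin is a phenolic plant compound, and the derivatives carry methyl or acetyl groups. The labels call the untreated cells cultured with no treatment and mention no solvent.

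NRF2, encoded by NFE2L2, is held at a low level by KEAP1, which presents it for degradation. Electrophiles and oxidants modify cysteines of KEAP1, NRF2 then accumulates, pairs with a small MAF protein and binds antioxidant response elements, from which the repressor BACH1 can be displaced. Its targets raise cystine import, glutathione synthesis, NADPH supply and the reduction of quinones and carbonyls, and SLC7A11 is also a target of the amino acid stress factor ATF4.

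The promoter stretches of GCLM and PIR are shown because they alone among the 5 promoters found (SLC7A11 was not matched) held the letters of the element's core, TGACNNNGC, searched on both strands from 250 bases before to 50 bases after the gene start. Sequences are from RefSeq on GRCh38.p14, printed 5′ to 3′ on the strand of the gene, and capitals mark the core, which lies on the opposite strand in both.
GCLM, chr1:93909431-93909489, minus strand: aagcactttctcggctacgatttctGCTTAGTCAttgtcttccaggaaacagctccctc
PIR, chrX:15493289-15493317, minus strand: gccgcgaagcGCTGAGTCAcggtgaggct
The core spans bases -34 to -26 from the start of GCLM and bases 27 to 35 after the start of PIR, where it overlaps an AP-1 site, TGANTCA, at bases 29 to 35. The core's letters occurred in 13.3% of the 35116 promoters in the RefSeq table and those of the AP-1 site in 7.71%, so a match in 2 of 5 describes these windows and marks no tested site. The windows of TKT, NQO1 and AKR1C1 held neither set of letters.

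The tables give the mean FPKM of each group (fragments per unit of transcript length and of sequencing depth), a log2 fold change of compound over untreated and a q-value, for listed genes only. For each compound named below, FPKM means, q-values and fold changes were copied from the authors' deposited table. Single samples and read totals are not given there, so neither depth nor replicate spread is known. The labels do not say whether replicates were grown separately, and a q-value may then reflect technical spread alone. Intervals are 95% intervals with an error derived from the q-value, which bounds the true error from above for an unshrunken Wald statistic. Listed genes have a q-value under 0.05 and a fold change of at least 0.5 in size on the log2 scale. A gene that is not listed has no value here, and that says nothing of its direction or level.

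Per length, the 6 genes differed widely in level in untreated cells. TKT had the highest mean, 210 FPKM, followed by NQO1 with 100.5 FPKM, SLC7A11 with 49.1 FPKM, GCLM with 13.3 FPKM, PIR with 3.71 FPKM and AKR1C1 with 1.57 FPKM. Without values per sample it cannot be said which neighbours in this order differ beyond their spread. The untreated mean was the same in every table for all 88 genes that stand in 2 or 3 of them, so the comparisons share their untreated samples.

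**Figure D1:**
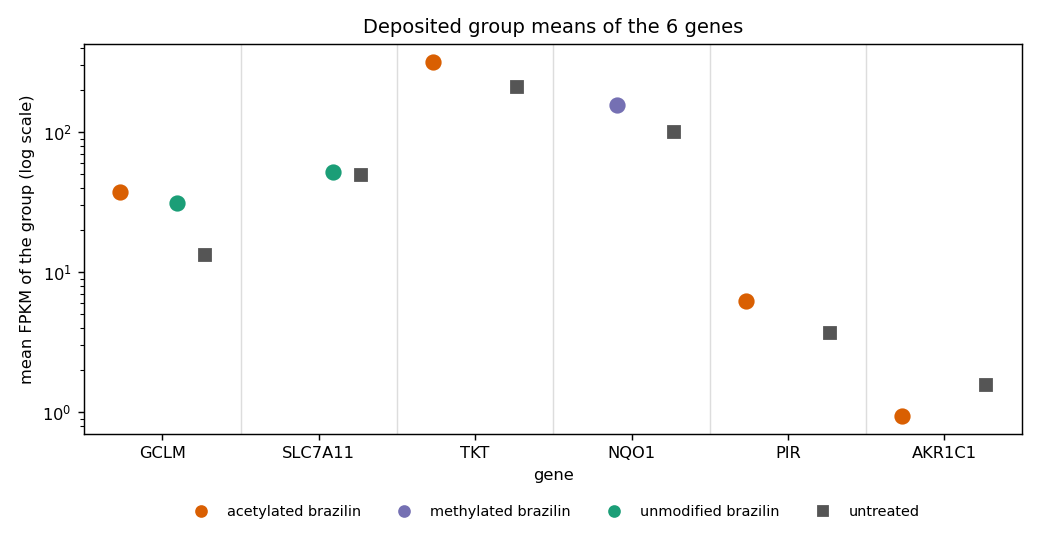
Mean FPKM per group on a log axis for each of the 6 genes, with circles for the compounds that list the gene and a grey square for untreated cells. Only GCLM has circles for 2 compounds, at 37.5 and 31.2 FPKM above its untreated 13.3 FPKM, and AKR1C1 is the only gene whose circle lies below its square.

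GCLM rose with acetylated and with unmodified brazilin, TKT and PIR rose with acetylated brazilin, and NQO1 rose with methylated brazilin. AKR1C1 fell with acetylated brazilin. SLC7A11 has a negative fold change with unmodified brazilin beside nearly equal FPKM means. In these bulk samples, fewer cells with a transcript and less of it per cell cannot be told apart. Acetylated brazilin had 4 of the 6 genes listed, 3 higher and 1 lower, in a table where 62.2% of 193 genes were higher and 37.8% lower. Methylated brazilin had 1 listed, higher, in a table where 27.3% of 11 genes were higher and 72.7% lower. Unmodified brazilin had 2 listed, 1 with a positive and 1 with a negative fold change, in a table where 47.6% of 2885 genes were higher and 52.4% lower. The number of genes the authors tested is unknown. Of the 20056 protein-coding genes in RefSeq, 0.932% were listed with acetylated, 0.0548% with methylated and 14.3% with unmodified brazilin, and the 6 genes were chosen with these listings known.

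GCLM (gene ID 2730, chromosome 1, 93885199 to 93909430 on GRCh38.p14) encodes the modifier subunit of glutamate-cysteine ligase, the enzyme of the first and rate-limiting step of glutathione synthesis. It had 37.5 FPKM with acetylated brazilin and 31.2 FPKM with unmodified brazilin, against 13.3 FPKM in untreated cells. The changes were 2.79-fold with acetylated brazilin (log2 1.48, interval 1.35 to 1.61, q = 7.08e-116 in the authors' deposited table) and 2.20-fold with unmodified brazilin (log2 1.14, interval 1.01 to 1.26, q = 5.05e-74). By size the rise ranked 6 among 120 with acetylated brazilin and 444 among 1374 with unmodified brazilin. By q-value the gene ranked 3 of 193 with acetylated and 86 of 2885 with unmodified brazilin. It lies in the fourth of 5 classes of transcript length, in which 60.5% of genes were higher with acetylated and 35.4% with unmodified brazilin. No value is listed for GCLM with methylated brazilin, nor with any compound for GCLC, the catalytic subunit.

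GCLM is the only one of the 6 genes listed with 2 compounds, which allows 1 comparison between compounds at equal dose and time. The log2 fold change was higher by 0.34 with acetylated than with unmodified brazilin (interval 0.17 to 0.52; difference over its q-derived error, two-sided, Benjamini-Hochberg adjusted p = 0.000439 over the 84 genes listed with both). By this test 45.2% of the 84 genes differed between the compounds, 28 with a higher value for acetylated brazilin and 10 with a lower one, and 33 genes had a larger positive difference than GCLM. The median difference over the 84 genes was 0.17, and the 2 comparisons share their untreated samples. The pairs with methylated brazilin could not be compared, since none of the 6 genes is listed both there and elsewhere.

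The heme and iron genes that NRF2 also drives were tested in the same way. FTH1, the ferritin heavy chain gene, had 8725 FPKM with acetylated and 5819 FPKM with unmodified brazilin, against 2929 FPKM in untreated cells, and its fold change was higher by 0.67 with acetylated brazilin (interval 0.55 to 0.79, adjusted p = 9.77e-27). With acetylated brazilin its q-value was given as 0, so that error was set by the value put in place of 0. For FTL, the ferritin light chain gene, the difference was -0.12 (interval -0.26 to 0.01, adjusted p = 0.137), not past the threshold. For HMOX1, the inducible heme oxygenase, it was -0.20 (interval -0.60 to 0.20, adjusted p = 0.496). The q-value of HMOX1 was given as 0 with acetylated and with unmodified brazilin. Both of its errors were thus set by the substituted value, and this test cannot decide whether HMOX1 differs between the compounds.

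**Figure D2:**
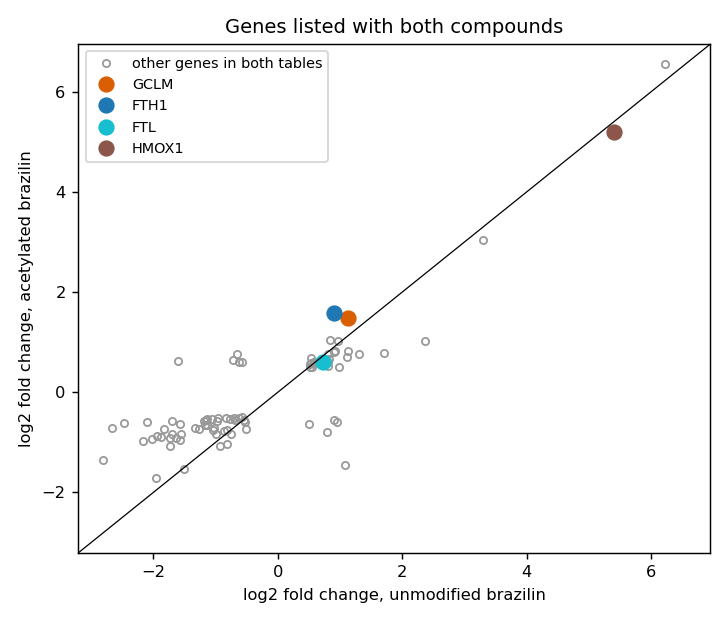
Deposited log2 fold change with acetylated brazilin against that with unmodified brazilin for the 84 genes listed with both, with a line of equal change. GCLM and FTH1 lie above the line by 0.34 and 0.67, HMOX1 and FTL lie near it, and both axes share the same untreated samples.

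By the distance between fold changes over these 2 compounds, the genes most like GCLM among 76 candidates were FTH1 at 0.25, FBXO30 at 0.49 and TUBB2B at 0.72 log2 units. FBXO30, which encodes an F-box protein, had fold changes of 1.02 with acetylated and 0.97 with unmodified brazilin, and TUBB2B, a beta tubulin gene, had 0.80 and 0.90.

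SLC7A11 (gene ID 23657, chromosome 4, 138164097 to 138242349) encodes the light chain of the cystine and glutamate antiporter, which supplies the cysteine for glutathione. It had 51.8 FPKM with unmodified brazilin, against 49.1 FPKM in untreated cells. The deposited log2 fold change was -0.54 (interval -0.65 to -0.44, q = 6.95e-25), whereas the log2 ratio of the FPKM means was 0.08. The 2 measures of the same table thus point in opposite directions, and the direction of SLC7A11 is uncertain. The deposited fold change lay 0.62 log2 units below the ratio of FPKM means (offset -0.62), while the quartiles of the offset in this table were -0.10 and -0.08. Only 23 of 2885 genes had an offset as low or lower, and 4 of the 984 genes with at least 10 FPKM in both groups. Opposite signs occurred in 6 genes of the table, none with acetylated or methylated brazilin. The other five, named after their values were seen, were FAM120C, PDK3, RNF217, PTAR1 and PRELID2. The longest annotated protein-coding transcript of SLC7A11 has 9645 bases, which puts the gene in the longest of 5 length classes. In that class 21.3% of 573 genes were higher with unmodified brazilin. The part of length in the value of SLC7A11 was not tested.

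**Figure D3:**
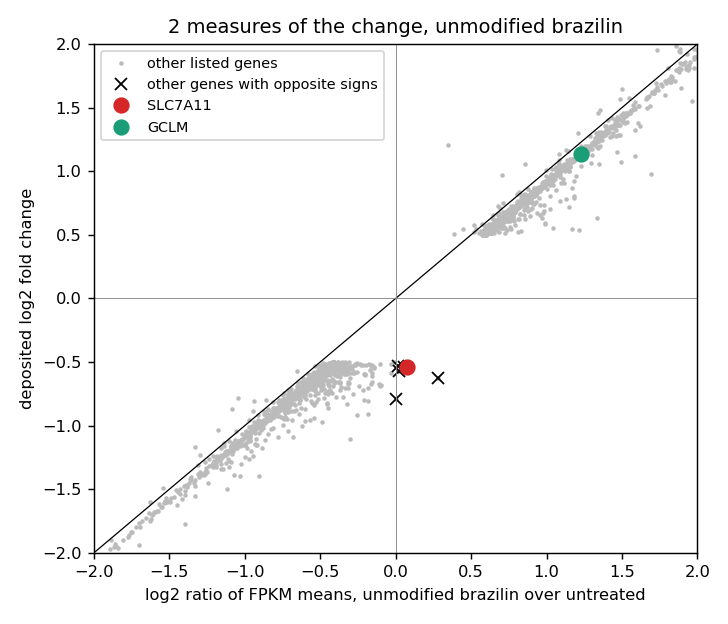
Deposited log2 fold change against the log2 ratio of FPKM means for genes listed with unmodified brazilin, each over untreated, with a line of equality and axes limited to 2 in either direction. GCLM lies within the band of other genes. SLC7A11 lies just right of and below the centre, at a ratio of 0.08 and a fold change of -0.54, near 5 crosses for the other genes with opposite signs.

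The ATF4 target list, on which SLC7A11 also stands, had 16 of its 31 genes listed with unmodified brazilin, where 14.3% of all protein-coding genes were. By the deposited fold change 2 were higher and 14 lower, and by the ratio of FPKM means, which turns SLC7A11, 3 were higher and 13 lower, in a table with 47.6% higher and 52.4% lower. The median deposited log2 fold change of the 16 was -0.63 against -0.51 over all listed genes. The 3 with the smallest q-values were ATF3, a stress-induced transcription factor gene, with 128 FPKM with unmodified brazilin against 29.8 FPKM in untreated cells, WARS1, the cytosolic tryptophan tRNA synthetase gene, with 144 FPKM with unmodified brazilin against 285 FPKM in untreated cells, and PSAT1, an enzyme gene of serine synthesis, with 82.5 FPKM with unmodified brazilin against 145 FPKM in untreated cells. None of the 31 genes was listed with acetylated or methylated brazilin, where 0.932% and 0.0548% of all protein-coding genes were. The genes whose deposited fold change lay nearest to that of SLC7A11 were AKAP11, FAM83D and ARHGEF2, each also at -0.54, out of 2495 candidates, and 0 of these 3 were among the nearest by the ratio of FPKM means.

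TKT (gene ID 7086, chromosome 3, 53224712 to 53256022) encodes transketolase, which links the pentose phosphate pathway to glycolysis. It had 319 FPKM with acetylated brazilin, against 210 FPKM in untreated cells. The 1.48-fold rise (log2 0.56, interval 0.48 to 0.65, q = 3.73e-36) ranked 75 among 120 rises by size.

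Of 18 genes on the list for the pentose phosphate pathway and NADPH supply, TKT was the only 1 listed with acetylated brazilin. Of all protein-coding genes, 0.932% were listed with that compound. With unmodified brazilin TKT was not listed, and 6 other genes of the same list were, all lower, beside 14.3% of all protein-coding genes listed with that compound and 52.4% of its listed genes lower. Their log2 fold changes were -0.51 to -1.02, with a median of -0.57. MTHFD2 and ALDH1L2, of these genes, are also among the lower ATF4 targets above, so the counts overlap. ALDH1L2, named for this overlap after its value was seen, had 0.275 FPKM with unmodified brazilin against 0.5 FPKM in untreated cells. IDH1, the cytosolic isocitrate dehydrogenase gene that yields NADPH, had 34.1 FPKM with unmodified brazilin against 64.6 FPKM in untreated cells (log2 -1.02, q = 5.25e-52). NNT, the mitochondrial transhydrogenase gene, and MTHFD2, a folate enzyme gene of mitochondria, were lower, at -0.55 and -0.51 on the log2 scale. Whether the list differs between the compounds was not tested, because no member is listed with both. By fold change alone, the genes nearest to TKT were RTL8C, ROGDI and PIDD1, each at 0.56, of 181 candidates.

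NQO1 (gene ID 1728, chromosome 16, 69709401 to 69726560) encodes the quinone reductase that carries out a reduction by 2 electrons with NADH or NADPH. It had 156 FPKM with methylated brazilin, against 100.5 FPKM in untreated cells. The change was 1.55-fold (log2 0.63, interval 0.23 to 1.02, q = 0.00186), and it was the smallest of the 3 rises among the 11 genes listed with methylated brazilin. The 2 larger rises were those of BEST1, an anion channel gene, at 1.64, and SLX1B, an endonuclease subunit gene listed at 0.01 FPKM in untreated cells. By distance of fold change, BEST1 was nearest to NQO1, followed by HSPA1A at -0.59 and GEM at -0.75, of 9 candidates.

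The derived error was compared among compounds in 1 gene of the redox lists. TXNIP, the gene of the thioredoxin-interacting protein, was the only one of 139 redox list genes listed with all compounds. Its error was 0.05 log2 units with acetylated, 0.20 with methylated and 0.06 with unmodified brazilin. A q-value is adjusted within its own comparison, so such an error also depends on how many genes were called with that compound. The errors therefore cannot compare the spread of samples between compounds. TXNIP had 136 FPKM with acetylated, 119 FPKM with methylated and 167 FPKM with unmodified brazilin, against 224 FPKM in untreated cells, and was lower in each (log2 -0.73, -0.92 and -0.52).

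NQO1 is also a known target of the aryl hydrocarbon receptor. On the list of 9 such genes it was the only one listed with methylated brazilin, where 0.0548% of all protein-coding genes were listed. None of the 9 was listed with acetylated brazilin, where 0.932% of all protein-coding genes were, and 2 with unmodified brazilin, where 14.3% were. With unmodified brazilin CYP1A1, a P450 gene and the classic target of the receptor, had 3.52 FPKM against 0.74 FPKM in untreated cells (log2 2.16, q = 2.54e-21), and CYP1B1, another P450 gene, had 26.8 FPKM against 16.0 FPKM in untreated cells (log2 0.65, q = 2.25e-18). NQO2, the related quinone reductase gene, was listed with acetylated brazilin at 54.6 FPKM against 34.9 FPKM in untreated cells (log2 0.66, interval 0.49 to 0.84, q = 2.18e-13).

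PIR (gene ID 8544, chromosome X, 15384799 to 15493333) encodes pirin, an iron-binding nuclear protein. It had 6.22 FPKM with acetylated brazilin, against 3.71 FPKM in untreated cells. The 1.68-fold rise (log2 0.75, interval 0.23 to 1.27, q = 0.00452) ranked 30 among 120 rises by size. Among the genes nearest to it by fold change were CCL5, a chemokine gene, and CCDC163, both at 0.76, of 181 candidates. The interval of PIR contains that of TKT, a gene with a far higher level.

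AKR1C1 (gene ID 1645, chromosome 10, 4963415 to 4983283) encodes an aldo-keto reductase that reduces progesterone and other carbonyls. It had 0.94 FPKM with acetylated brazilin, against 1.57 FPKM in untreated cells. The change of 0.65-fold (log2 -0.61, interval -1.12 to -0.11, q = 0.0165) came with the largest q-value of the 6 genes, ranking 156 of 193, and the lowest level. The longest annotated protein-coding transcript of AKR1C1 has 6705 bases, which puts the gene in the longest of 5 length classes. In that class 39.5% of 38 genes were higher with acetylated brazilin. Which transcript the cells expressed is not given, and the part of length in the value of AKR1C1 was not tested. Nearest by fold change were OLAH and ATOH8 at -0.61 and -0.62, and NRP2 at -0.61.

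AKR1C1 has a near-identical relative, AKR1C2, and its value is reported as uncertain. Its coding sequence of 969 bases differs from that of AKR1C2 at 19 positions, an identity of 98.0%, with a longest shared run of 186 bases, and from that of AKR1C3 at 79 positions (91.8%). The authors' counting may divide reads among these copies, and neither AKR1C2 nor AKR1C3 was listed with any compound. The stretch in which AKR1C1 and AKR1C2 differ most, coding bases 103 to 162 from the start codon in GENCODE release 29, holds 10 of their 19 differing positions within 60 bases, with those bases in capitals.
AKR1C1: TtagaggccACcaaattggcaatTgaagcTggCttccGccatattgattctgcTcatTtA
AKR1C2: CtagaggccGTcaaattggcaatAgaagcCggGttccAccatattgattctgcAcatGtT

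**Figure D4:**
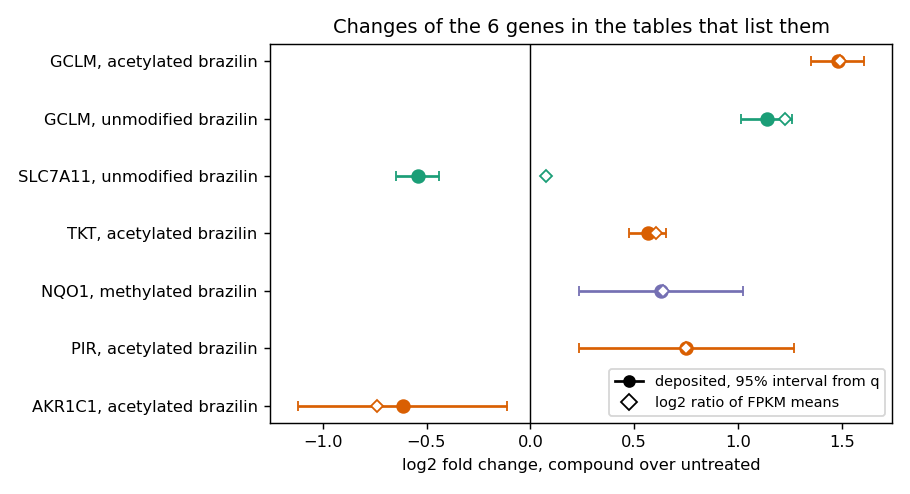
Deposited log2 fold change of compound over untreated (filled circles) with 95% intervals derived from the q-value, and the log2 ratio of FPKM means (open diamonds), for each gene and compound listed. The 2 measures lie close together except for SLC7A11, at -0.54 and 0.08, and the intervals of NQO1, PIR and AKR1C1 are the widest.

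Around these 6 genes, 8 lists of the glutathione and redox network held 133 others. Acetylated brazilin had 2 of the 133 listed, NQO2 higher and TXNIP lower. With that compound 0.932% of all protein-coding genes were listed, and 62.2% of the listed genes were higher. Methylated brazilin had 1 listed, TXNIP, lower, where 0.0548% of all protein-coding genes were listed and 72.7% of the listed genes were lower. Unmodified brazilin had 21 listed, 7 higher and 14 lower, where 14.3% of all protein-coding genes were listed and 52.4% of the listed genes were lower, with a median log2 fold change of -0.54 beside -0.51 over all listed genes. NFE2L2, KEAP1 and BACH1 themselves were not listed with any compound. Of 16 regulators of NRF2 only PGAM5, a mitochondrial phosphatase that binds KEAP1, was listed, with 38.6 FPKM with unmodified brazilin against 22.3 FPKM in untreated cells (log2 0.70, q = 1.33e-20).

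In glutathione synthesis and cystine import, CHAC2, the gene of an enzyme that degrades glutathione, had 10.5 FPKM with unmodified brazilin against 4.96 FPKM in untreated cells (log2 1.00), and GGT5, a gamma-glutamyltransferase gene, had 9.39 FPKM with unmodified brazilin against 17.5 FPKM in untreated cells (log2 -0.98). Of 31 genes for enzymes that use glutathione, GLRX, a glutaredoxin gene, and GPX8, a peroxidase gene of the endoplasmic reticulum, were lower with unmodified brazilin, at -0.68 and -0.64 on the log2 scale. GSTO2, a glutathione transferase gene, was higher by 0.73, with 0.95 FPKM with unmodified brazilin against 0.595 FPKM in untreated cells. TXN, the thioredoxin gene, had 838 FPKM with unmodified brazilin against 516 FPKM in untreated cells (log2 0.62, q = 0.000173), and SESN3, a sestrin gene, was higher by 1.22 at under 1 FPKM. ABCG2, a drug exporter gene, had 1.16 FPKM with unmodified brazilin against 0.28 FPKM in untreated cells (log2 2.02, q = 5.28e-09). UGDH, which makes the sugar donor for glucuronidation, had 44.4 FPKM with unmodified brazilin against 60.1 FPKM in untreated cells (log2 -0.53).

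Among 8 other targets, SLC6A6, a taurine transporter gene, NUPR1, a stress-induced chromatin protein gene, and ABHD4, a lipase gene, were lower with unmodified brazilin, at -0.59, -1.27 and -0.65 on the log2 scale. OSGIN1, a growth inhibitor gene named after its value was seen, was higher by 0.71, with 25.5 FPKM with unmodified brazilin against 14.6 FPKM in untreated cells. Of the heme and iron list of 10 genes, 4 were higher and none lower with acetylated brazilin. None was listed with methylated brazilin, and 3 were higher and none lower with unmodified brazilin. Of all protein-coding genes, 0.932% were listed with acetylated, 0.0548% with methylated and 14.3% with unmodified brazilin. Among all listed genes, 62.2% were higher with acetylated and 47.6% with unmodified brazilin.

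**Figure D5:**
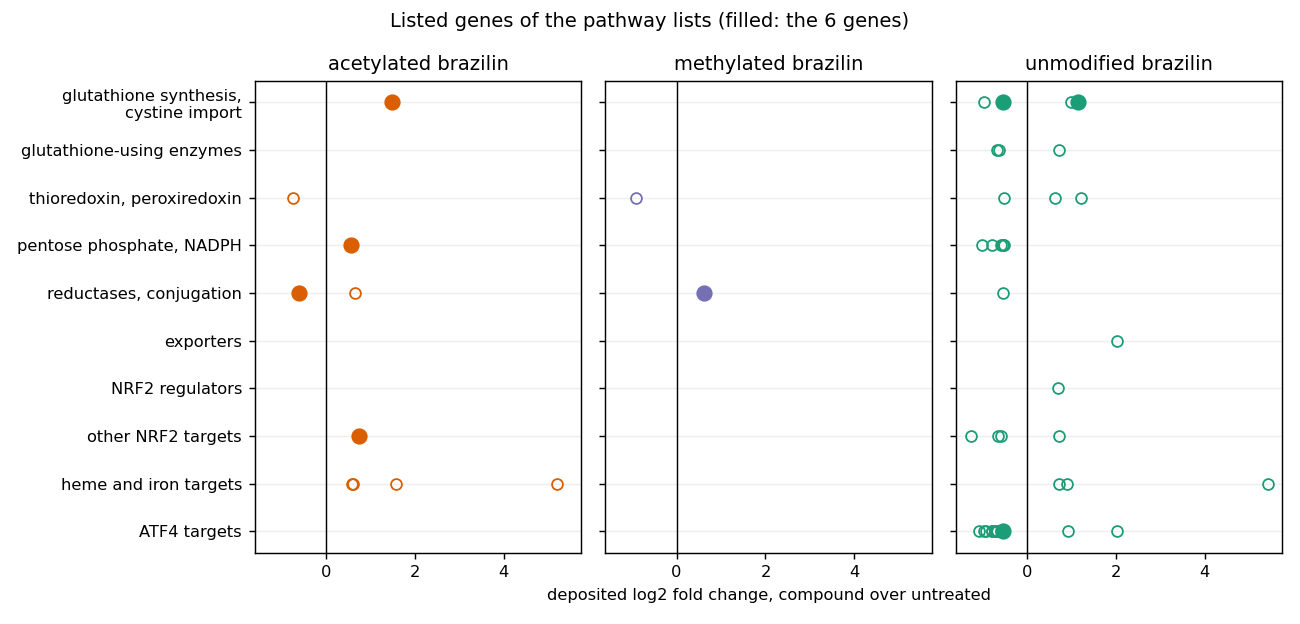
Deposited log2 fold change of compound over untreated for every listed gene of 10 lists, by compound, with filled circles for the 6 genes and open circles for the others. With acetylated brazilin 6 genes of the first 8 lists appear, with methylated brazilin 2, and with unmodified brazilin 23, of which 15 lie below 0.

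The label of the line could be checked only in part, since the tables hold changed genes alone. Of its 7 markers, CD44 and SNAI2 were listed with unmodified brazilin, CD44 with 226 FPKM against 132 FPKM in untreated cells. VIM, EPCAM and the receptor genes ESR1, PGR and ERBB2 were not listed, which says nothing of their level. Of 10 markers of leukocytes, endothelium and fat, 2 were listed, both with unmodified brazilin. CD68 had 81.6 FPKM with unmodified brazilin against 50.8 FPKM in untreated cells, and PECAM1 had 0.905 FPKM with unmodified brazilin against 1.35 FPKM in untreated cells. Their part in the results was not tested.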

How the data were processed

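RNA sequencing of 8 samples in 4 groups of 2 was deposited as 3 tables, 1 per compound against untreated cells. Per the submitters' processing notes, the tools were DESeq2, RSEM, Bowtie, StringTie and HISAT and the builds GRCh38, hg38 and mm10, all without version or role. The labels do not give strandedness. Per the file headers, the authors deposited group means in FPKM, the log2 fold change of each gene and its q-value. The log2 fold changes are compound over untreated, judged from the FPKM means. The members and gene lists were chosen with earlier results of these data known. The error of a log2 fold change was its size over the normal quantile of the q-value (q-values of 0 were set to 1e-300). The difference between compounds was divided by the root of the summed squared errors, with p-values adjusted by Benjamini-Hochberg over all genes both tables list. Shared untreated samples make its error too large.

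Lists were 13 with 206 entries (195 genes, all matched to a RefSeq gene ID). Named were all 6 members, for each list and compound the 3 listed genes lowest in q-value, and the 3 genes nearest to each member by log2 fold change (minimum 1 FPKM in either group). A gene that these rules name is not reported here. Length was that of the longest protein-coding transcript in GENCODE release 29, known for 2866 of 2885 genes with unmodified and 190 of 193 with acetylated brazilin. Coding sequences were aligned globally with Biopython 1.88, under Python 3.11.15 with scipy 1.17.1.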

Additional observations from a re-analysis of the deposited data

How the results depend on the processing

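No paired analysis was possible because the tables hold group means only, so leaving out single replicates was not run either. The log2 fold change of SLC7A11 reversed by the log2 ratio of FPKM means, to 0.0762 without a pseudocount, 0.0761 with a pseudocount of 0.1 and 0.0748 with one of 1, and was -0.45 after subtraction of the median offset of its table. The cause was not tested. With that ratio 2 members were higher and 0 lower with unmodified brazilin. GCLM with unmodified brazilin moved by more than its error to 1.22 by the ratio, 1.22 with a pseudocount of 0.1 and 1.23 after that subtraction. The other 21 alternative log2 fold changes moved by less than their error.

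At a size of at least 1 on the log2 scale, fewer genes being admitted, 1 member was higher and 0 lower with acetylated, 0 higher with methylated and 0 lower with unmodified brazilin. At q under 0.01 and under 0.001, and without AKR1C genes, 0 members were lower with acetylated brazilin, and at q under 0.001 2 were higher with acetylated brazilin, without PIR, and 0 with methylated brazilin. The GCLM difference between compounds stayed past the threshold under every alternative tried, at 0.26 to 0.34, with adjusted p between 3.66e-07 and 0.0114, including a centring chosen after seeing the data. By the ratio of FPKM means, 0 of the 3 nearest genes were shared for SLC7A11, TKT, PIR and AKR1C1, and 2 of 3 for GCLM and NQO1. The q-values rest on 2 samples a group and on an unknown depth.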
